A study of Homo sapiens with 8 samples.

Results

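The values below are those of 35 genes of homologous recombination and of the Fanconi anemia pathway, of 22439 genes that could be named on the arrays. The genes were taken by symbol from a list of the pathway that was chosen with earlier results of these data known. Measured signals enter the rule only to leave out outlier spots and spots not well above background. All 35 had a probe, 44 probes in all, and all 35 were counted on each of the 8 arrays, which means that red or green, or both, stood well above background for at least 1 probe. Each array compared 2 RNAs. The RNA of treated cells was labeled with Cy5 (red) and that of control cells of the same line with Cy3 (green), and the value of a gene is the log2 ratio of red over green. A value of -1 is a 2-fold lower level in the treated cells.

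The groups were as follows. EBC-1 and SK-MES-1, lines of lung squamous cell carcinoma (LUSQ), were transfected with miR-150-3p, the passenger strand of the miR-150 precursor, with 1 array per line. SBC-3, a small cell lung cancer line, was transfected with siDONSON-1, siDONSON-2 or siDONSON-3 against DONSON, a factor of replisome assembly, with 1 array for each siRNA. A549, a lung adenocarcinoma line, was edited at LOXL2, a lysyl oxidase-like enzyme of the extracellular matrix, with CRISPR/Cas9, and has 3 arrays, A549-GE1 to A549-GE3. The controls of the transfections are called mock in one label and not transfected in another, and those of A549 are unedited. The labels do not say whether the arrays of a group came from separate cultures or clones, nor whether a control RNA was used more than once, so p-values measure only the spread between these arrays. All arrays ran in the same dye orientation, so a bias of a gene toward one dye cannot be told apart from the treatment.

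Homologous recombination repairs a broken chromosome from the intact sister copy. The ends are cut back to single strands, BRCA1, PALB2 and BRCA2 prepare them for strand exchange, the strands invade the sister, and the joined molecules are then taken apart. The Fanconi anemia pathway opens this route for crosslinks between the strands: a core complex with the ubiquitin conjugating enzyme UBE2T modifies FANCD2 and FANCI, and nucleases then cut the lesion out. Many of these genes are transcribed most in S phase, when a sister copy is present.

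The targeted genes were checked first. The DONSON ratios were -2.15, -1.79 and -2.11 with siDONSON-1, siDONSON-2 and siDONSON-3, all below the lowest value on the other arrays, -1.02 in EBC-1. The LOXL2 ratios were -2.49, -2.67 and -2.59 on A549-GE1, A549-GE2 and A549-GE3. On the 8 arrays, 48.5% to 56.2% of the 60901 spots were well above background in red and 41.1% to 46.4% in green, no spot was saturated (0), and 27229 to 31787 probes were counted. The median ratio of all genes lay between 0.018 and 0.053. Of 8 squamous markers, 5 were well above background in control SK-MES-1 cells, TP63 included, but 2 in control EBC-1 cells, SOX2 and S100A2, where TP63 and KRT5 were not. SBC-3 controls had 3 of 8 small cell markers (NEUROD1, CHGA and SYP), and A549 controls had 5 of 8 adenocarcinoma markers, without NKX2-1 and SFTPB. The lists of the other tumor types were partly present as well. Of the adenocarcinoma markers, EBC-1 controls had 4, those of SK-MES-1 had 5 and those of SBC-3 had 2 well above background. SBC-3 controls had 3 squamous markers, TP63 included, and A549 controls had 2. Of the small cell markers, SK-MES-1 controls had 2 (NCAM1 and UCHL1), A549 controls had 2 and EBC-1 controls had 0.

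**Figure D1:**
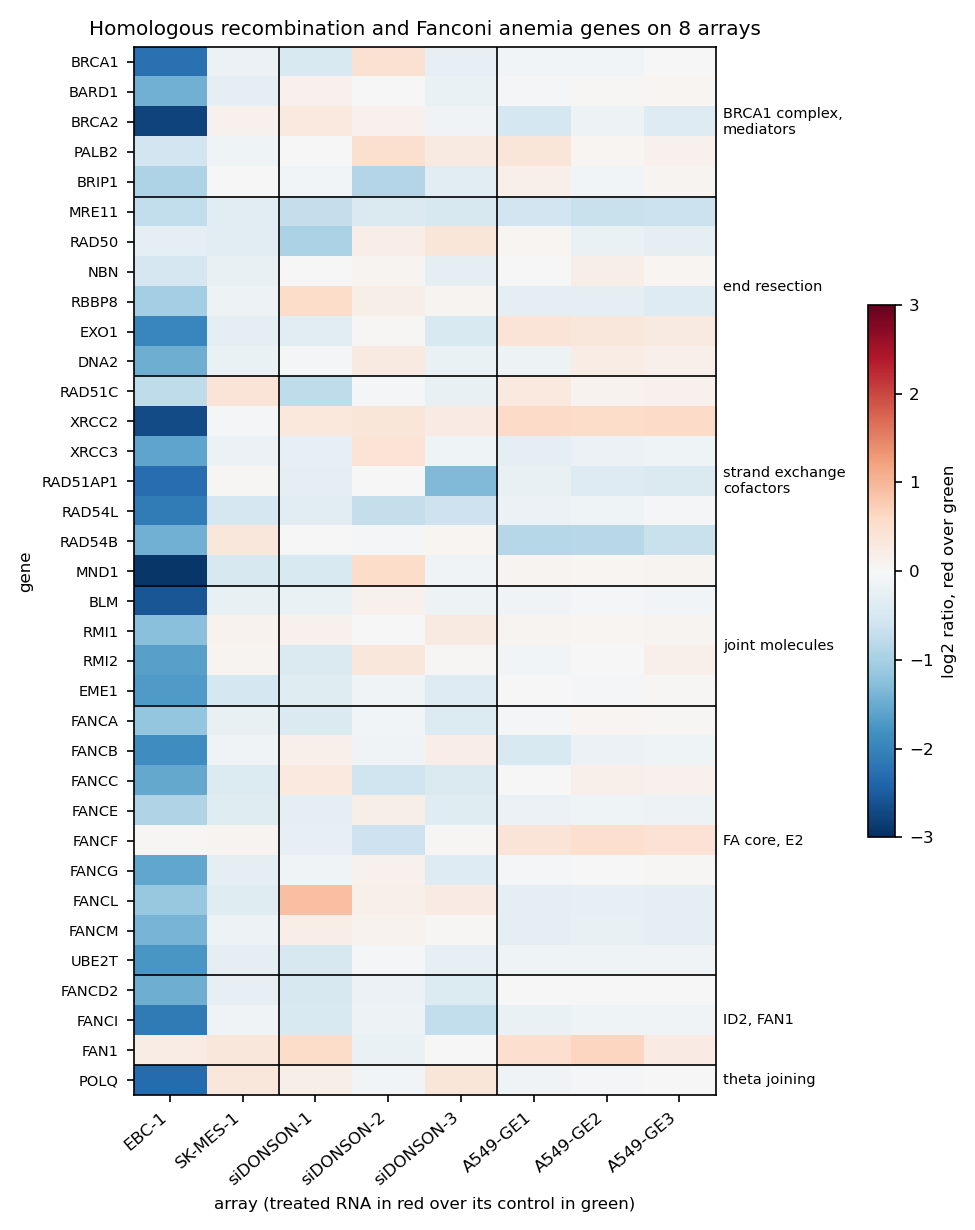
Log2 ratio of red over green (color scale, from -3 to 3) for the 35 genes (vertical axis, grouped by role) on the 8 arrays (horizontal axis). The EBC-1 column is below -1 for 26 genes and above 0 for FANCF and FAN1, while no gene is below -1 on the SK-MES-1 array or on the 3 A549 arrays.

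Promoters are shown for the 4 genes with the lowest EBC-1 ratios among those with both channels well above background and a promoter in the reference table (MND1, XRCC2, BLM and POLQ), and for MRE11, which passed the test in the same direction with both siDONSON and LOXL2 editing, as did XRCC2. They are RefSeq sequences of GRCh38.p14, 250 bases before and 30 after the annotated start, printed 5′ to 3′ on the strand of the gene. They lie at chr4:153344438-153344717 on the plus strand (MND1, the first of 2 promoters in the table), chr7:152676112-152676391 on the minus strand (XRCC2), chr15:90717096-90717375 on the plus strand (BLM), chr3:121545959-121546238 on the minus strand (POLQ) and chr11:94493815-94494094 on the minus strand (MRE11). Capitals mark matches, on either strand, to CCAAT (the box bound by NF-Y), TTTGAA (the CHR element of cell cycle genes), TTTNNCGC (a loose form of the E2F site) or GGGCGG (the GC box). The matches overlap only in XRCC2, where 1 pair of GC boxes shares a base.
MND1: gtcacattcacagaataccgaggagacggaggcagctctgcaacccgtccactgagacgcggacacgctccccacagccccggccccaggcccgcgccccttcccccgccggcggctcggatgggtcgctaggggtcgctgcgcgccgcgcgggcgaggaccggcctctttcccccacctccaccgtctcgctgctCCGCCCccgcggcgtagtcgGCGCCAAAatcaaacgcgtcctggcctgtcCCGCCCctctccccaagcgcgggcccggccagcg
XRCC2: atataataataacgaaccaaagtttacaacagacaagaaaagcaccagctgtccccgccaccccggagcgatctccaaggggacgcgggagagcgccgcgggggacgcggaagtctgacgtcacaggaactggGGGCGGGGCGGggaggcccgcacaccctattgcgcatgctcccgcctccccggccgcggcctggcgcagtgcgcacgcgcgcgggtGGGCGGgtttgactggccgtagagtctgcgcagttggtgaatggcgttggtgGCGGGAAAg
BLM: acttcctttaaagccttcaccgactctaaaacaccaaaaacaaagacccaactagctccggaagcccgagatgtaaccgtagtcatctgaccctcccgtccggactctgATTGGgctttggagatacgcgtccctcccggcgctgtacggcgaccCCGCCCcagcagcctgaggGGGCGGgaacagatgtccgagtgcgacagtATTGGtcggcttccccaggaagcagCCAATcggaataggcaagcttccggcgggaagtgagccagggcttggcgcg
POLQ: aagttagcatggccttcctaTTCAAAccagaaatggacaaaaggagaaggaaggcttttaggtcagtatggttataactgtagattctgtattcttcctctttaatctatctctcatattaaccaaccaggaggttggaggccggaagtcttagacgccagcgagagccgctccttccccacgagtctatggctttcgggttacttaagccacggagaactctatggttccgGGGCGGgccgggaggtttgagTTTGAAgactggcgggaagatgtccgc
MRE11: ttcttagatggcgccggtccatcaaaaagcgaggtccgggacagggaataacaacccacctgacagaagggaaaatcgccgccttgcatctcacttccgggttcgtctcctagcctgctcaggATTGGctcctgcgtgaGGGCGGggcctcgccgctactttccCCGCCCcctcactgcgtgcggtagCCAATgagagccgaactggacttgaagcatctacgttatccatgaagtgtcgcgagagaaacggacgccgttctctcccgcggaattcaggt

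TTTNNCGC occurs once in the MND1 and once in the XRCC2 sequence, and not in those of BLM, POLQ and MRE11. CCAAT occurs 3 times in the BLM and 2 times in the MRE11 sequence, and TTTGAA 2 times in that of POLQ. The table held 39 promoters of 30 of the 35 genes, each with 50 bases after the start. DNA2, FANCI, NBN, RAD54B and RMI2 had none in it. TTTNNCGC was in 9 of the 39 promoters, or 23.1%, against 6.89% of all 35116 promoters of that length. These 9 promoters belong to EXO1, FANCA, FANCC, FANCD2, MND1, RMI1 and XRCC2, all of which were below -1 in EBC-1 cells, so that 9 of the 29 promoters of genes below -1 held it and 0 of the 10 others. GGGCGG was in 27 of the 39, or 69.2%, against 45.0% of all promoters. The shares were closer for CCAAT, with 14 promoters or 35.9% against 34.6%, and lower for TTTGAA, with 4 promoters or 10.3% against 15.2%. Several of these promoters belong to the same gene, and a match is a description of letters in this window.

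The first comparison asked which of these genes moved after miR-150-3p transfection of LUSQ cells. In EBC-1 cells, most of the recombination and Fanconi anemia genes were lower: 26 of 35 were below -1 and 0 were above 1. Of all 14759 genes counted on that array, 6.04% were below -1 and 5.96% above 1. The median of the 35 genes was -1.46, beside 0.053 over all genes, and 33 of the 35 were below 0, beside 45.9% of all genes. With 1 array per line there is no replicate and no test, and the error given below is that of the scanner software. For 32 of the 35 genes the ratio lay below 0 by more than 1.96 such errors. The share of all genes beyond this limit was not counted.

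SK-MES-1 cells gave another picture. None of the 35 genes was below -1 (0) or above 1 (0), where 1.27% and 2.57% of all 16178 genes were. The median was -0.18, beside 0.018 over all genes, and 25 of the 35 genes were below 0, beside 47.5% of all genes. Of the 35 genes, only EME1, RAD54L and MND1 lay below 0 by more than 1.96 software errors, and 0 lay above it by as much. Here too the share of all genes was not counted. Of the 35 genes, 34 had the lower ratio in EBC-1 cells, by a median of -1.26, and the exception was RAD50 with -0.30 and -0.31. The share of all genes with the lower ratio in EBC-1 cells was not counted. Between the lines, Pearson's r was 0.157 across the 35 genes, which share their arrays and are not independent. With 1 array for each line, a difference between the lines cannot be told apart from one between the 2 hybridizations.

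**Figure D2:**
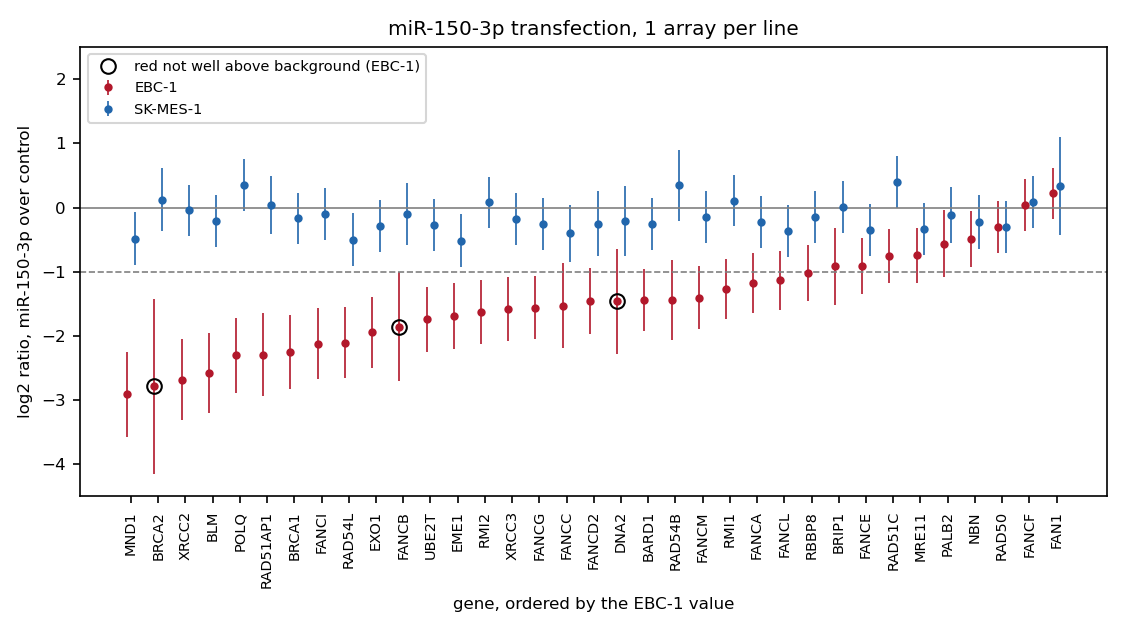
Log2 ratio of miR-150-3p over control RNA (vertical axis) for each gene (horizontal axis, ordered by the EBC-1 value) in EBC-1 (red) and SK-MES-1 cells (blue), 1 array each. Bars are 1.96 software errors, the dashed line marks -1, and open circles mark BRCA2, FANCB and DNA2, whose red signal in EBC-1 was not well above background. The EBC-1 points run from -2.91 to 0.22, and the SK-MES-1 points stay between -0.52 and 0.40.

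The cutting back of DNA ends is started by MRE11, a nuclease, with RAD50, its ATPase partner, and NBN, which holds the complex at the break. RBBP8 (CtIP) stimulates MRE11, and EXO1 and DNA2 carry out the long cut. Of the 6 genes, 3 were below -1 in EBC-1 cells, and their median of -0.88 was the highest of the role groups. The 3 subunits of the MRE11 complex were the least lowered, at -0.74 ± 0.22 for MRE11, -0.30 ± 0.21 for RAD50 and -0.49 ± 0.22 for NBN (ratio ± software error). The long-range nuclease EXO1 was at -1.95 ± 0.28, 3.85-fold lower, from an intensity of 424 in green to 110 in red. It was at -0.29 in SK-MES-1 cells, at -0.35, 0.036 and -0.47 with the siRNAs 1 to 3 and at 0.39, 0.34 and 0.27 on A549-GE1 to A549-GE3, where all 3 values were above 0. DNA2 was not well above background in red in EBC-1 and was at least 2.75-fold lower there. RBBP8 was at -1.02, and was above 0 with all 3 siRNAs and below 0 on all 3 A549 arrays. MRE11 itself was below 0 on all 8 arrays, at -0.34 in SK-MES-1 cells, at -0.72, -0.42 and -0.47 with the siRNAs and at -0.56, -0.66 and -0.66 in edited A549 cells. The EBC-1 and siDONSON-1 values of MRE11 differed by less than the software error. Less the mean of the 6 siDONSON and LOXL2 arrays, MRE11 was at -0.16 in EBC-1 cells and at 0.24 in SK-MES-1 cells.

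BRCA1 and BARD1 form a ubiquitin ligase that favors end resection, PALB2 joins it to BRCA2, which acts on the resected ends, and BRIP1 is a helicase bound to BRCA1. All 5 were below 0 in EBC-1 cells and 3 were below -1. BRCA1 was 4.76-fold lower at -2.25 ± 0.29, with intensities of 1007 in green and 212 in red over 10 spots of its probe. Its values on the other arrays lay between -0.45 and 0.45, with -0.17 in SK-MES-1 cells, -0.45, 0.45 and -0.24 with the siRNAs and -0.072, -0.091 and -0.0096 in A549 cells. BRCA2, measured at -2.79, was not well above background in red and was at least 2.41-fold lower in EBC-1 cells, where its green intensity was only 65.0. It was at 0.12 in SK-MES-1 cells. With siDONSON-1 and siDONSON-2 it was the green signal of BRCA2 that was not well above background. BARD1 was at -1.44 in EBC-1 cells and -0.26 in SK-MES-1 cells, BRIP1 at -0.92 and 0.0061, and PALB2, the least lowered of the group, at -0.57 and -0.12.

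RAD51C, XRCC2 and XRCC3 assist the early steps of strand exchange, RAD51AP1 and MND1 assist the pairing with the sister copy, and RAD54L and RAD54B are motors that move along the DNA. This group held the lowest value of all and had the lowest median in EBC-1 cells among the groups of more than 1 gene, -2.10, with 6 of 7 genes below -1. MND1, best known from meiosis, was at -2.91 ± 0.34, 7.53-fold lower, from 2264 in green to 301 in red. In SK-MES-1 cells it was at -0.48 ± 0.21. With the siRNAs it was at -0.46, 0.54 and -0.11, with siDONSON-2 on the other side of 0, and in A549 cells at 0.086, 0.058 and 0.081.

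XRCC2 was 6.42-fold lower in EBC-1 cells, at -2.68 ± 0.32, and was at -0.045 in SK-MES-1 cells. On the other 6 arrays it was above 0, with 0.31, 0.36 and 0.25 for the siRNAs and 0.58, 0.54 and 0.57 in A549 cells. RAD51AP1 was at -2.29 ± 0.33 in EBC-1 cells and 0.038 in SK-MES-1 cells. It was the one gene below -1 outside EBC-1, with -0.29, 0.017 and -1.32 for the 3 siRNAs, and was at -0.22, -0.40 and -0.44 in A549 cells. The motor gene RAD54L was below 0 on all 8 arrays, at -2.10 ± 0.28 in EBC-1 cells and -0.50 ± 0.21 in SK-MES-1 cells, at -0.33, -0.72 and -0.63 with the siRNAs and at -0.18, -0.13 and -0.053 in A549 cells. XRCC3 was at -1.58 and RAD51C at -0.76 in EBC-1 cells, and RAD51C had the highest SK-MES-1 value of the 35 genes, 0.40.

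RAD54B was measured by 2 probes that disagreed. Its mean was -1.43 in EBC-1 cells, from -2.17 and -0.69, and 0.35 in SK-MES-1 cells, from -0.65 and 1.34, where the dimmer probe was not well above background in green. With the siRNAs the means were -0.015, -0.044 and 0.065, and the probes of siDONSON-1 stood at 0.64 and -0.67. In A549 cells the means were -0.84, -0.82 and -0.67, and both probes were below 0 on all 3 arrays. The sign of RAD54B is thus that of both probes only in EBC-1 and A549 cells.

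BLM is the helicase that, with RMI1 and RMI2, dissolves joined molecules, and EME1 is the partner of the nuclease MUS81 that cuts them. All 4 genes were below -1 in EBC-1 cells. BLM was 5.96-fold lower, at -2.57 ± 0.32, and lay between -0.21 and 0.13 elsewhere, with -0.21 in SK-MES-1 cells, -0.19, 0.13 and -0.16 with the siRNAs and -0.11, -0.061 and -0.079 in A549 cells. EME1 had the lowest SK-MES-1 value, -0.52 ± 0.21, beside -1.69 ± 0.26 in EBC-1 cells. The siRNA arrays gave -0.36, -0.11 and -0.40 for EME1 and the A549 arrays 0.021, -0.024 and 0.026, so it was below 0 on 6 arrays. RMI1 and RMI2 were at -1.26 and -1.63 in EBC-1 cells and at 0.11 and 0.083 in SK-MES-1 cells.

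The Fanconi anemia core complex is built from FANCA, FANCB, FANCC, FANCE, FANCF and FANCG, with FANCL as the ubiquitin ligase, and FANCM moves along the DNA and anchors it. UBE2T is its conjugating enzyme. In EBC-1 cells, 7 of the 9 genes were below -1, and the median was -1.40. UBE2T, with a green intensity of 12969 in EBC-1 cells, was below 0 on all 8 arrays, at -1.74 ± 0.26 in EBC-1 cells and -0.27 in SK-MES-1 cells, -0.47, -0.057 and -0.24 with the siRNAs and -0.13, -0.13 and -0.12 in A549 cells. FANCF, the adaptor that joins parts of the complex, stood apart at 0.035 ± 0.21 in EBC-1 cells and 0.088 in SK-MES-1 cells. The FANCF probes lay on opposite sides of 0 there, at 0.24 and -0.17 in EBC-1 and at 0.28 and -0.11 in SK-MES-1 cells. Its values were -0.24, -0.61 and 0.034 with the siRNAs and 0.40, 0.49 and 0.43 in A549 cells, where all 3 were above 0.

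The ligase FANCL was at -1.14 ± 0.24 in EBC-1 cells and -0.36 in SK-MES-1 cells, and above 0 with the siRNAs, at 0.90, 0.16 and 0.25. The siDONSON-1 value was the highest of any of the 35 genes on any array. In A549 cells FANCL was at -0.28, -0.25 and -0.27. FANCM was at -1.40 and -0.14 in the LUSQ lines, at 0.21, 0.10 and 0.045 with the siRNAs and at -0.27, -0.23 and -0.30 in A549 cells, where the 3 values lay below all other FANCM values but that of EBC-1.

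FANCA and FANCC had probes that differed by more than 1 in EBC-1 cells. The 3 FANCA probes were between -1.62 and -0.56, with a mean of -1.17, and FANCA was at -0.23 in SK-MES-1 cells, -0.43, -0.083 and -0.40 with the siRNAs and -0.034, 0.069 and 0.025 in A549 cells. The FANCC probes were at -2.39, with red not well above background, and at -0.67, with a mean of -1.53. FANCC was at -0.40 in SK-MES-1 cells, 0.28, -0.59 and -0.44 with the siRNAs and 0.022, 0.15 and 0.12 in A549 cells. By the brightest probe alone, 25 genes in place of 26 were below -1 in EBC-1 cells. Of the other core genes, FANCB was not well above background in red there and was at least 3.13-fold lower, FANCG was at -1.56 and FANCE at -0.91.

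FANCD2 and FANCI form the clamp that the core complex modifies, and FAN1 is a nuclease recruited to it. FANCI was 4.35-fold lower in EBC-1 cells at -2.12 ± 0.28, and was below 0 on the other 7 arrays as well, at -0.10 in SK-MES-1 cells, -0.47, -0.14 and -0.73 with the siRNAs and -0.19, -0.12 and -0.098 in A549 cells. FANCD2 was at -1.46 ± 0.26 in EBC-1 cells and -0.25 ± 0.26 in SK-MES-1 cells, at -0.49, -0.18 and -0.42 with the siRNAs and at -0.019, -0.0061 and -0.0014 in A549 cells. The 3 siRNA means of FANCD2 lay below the 3 A549 means, but the A549 means average probes of opposite sign. On A549-GE1 to A549-GE3 the brightest probe was at 0.15, 0.040 and 0.11, and another at 0.22, 0.41 and 0.41. The dimmest was at -0.43, -0.47 and -0.53. With the siRNAs the dimmest probe was at -0.63, -0.20 and -0.39, so this order did not hold for it. FAN1 was above 0 in both LUSQ lines, at 0.22 ± 0.21 and 0.33 ± 0.39, at 0.56, -0.19 and -0.0014 with the siRNAs and at 0.51, 0.65 and 0.24 in A549 cells, with 1 of its 2 probes not well above background in green on any of the 8 arrays. POLQ, the polymerase of an end joining route that competes with recombination, was 4.93-fold lower in EBC-1 cells at -2.30 ± 0.30 and was at 0.35 ± 0.21 in SK-MES-1 cells. It was at 0.17, -0.084 and 0.36 with the siRNAs and -0.10, -0.056 and -0.011 in A549 cells.

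Other genes of the same pathways were measured alongside, in a list of 40 written out from the pathways. In EBC-1 cells 8 of the 37 that were counted were below -1 and 1 above 1, with a median of -0.47. The lowest were UHRF1, a reader of methylated DNA, at -2.82 and the joint molecule nuclease GEN1, whose red signal was not well above background and which was at least 3.88-fold lower. The highest were EME2, counted on this array alone, whose green signal was not well above background and which was at least 4.54-fold higher, and the helicase HELQ at 0.71. SK-MES-1 cells had 2 of 38 below -1, DMC1 at -1.08 and UHRF1 at -1.02, and a median of -0.13.

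Other repair pathways were less shifted in EBC-1 cells. The medians were -0.75 over 7 mismatch repair genes, -0.33 over 12 genes of non-homologous end joining, -0.14 over 17 base excision genes and 0.13 over 13 nucleotide excision genes, with 2, 2, 2 and 1 genes below -1. The cell cycle lists were lower than the recombination genes. All 15 S phase genes were below -1, between -2.79 for GINS2 and -1.19 for SLBP with a median of -2.07, and so were all 14 G2/M genes counted, between -2.82 for CDK1 and -1.20 for AURKA with a median of -1.67. DONSON was at -1.02. In SK-MES-1 cells the medians were -0.26 for S phase and -0.09 for G2/M genes, with 0 and 0 genes below -1. The part of these cell cycle genes in the values of the recombination genes was not tested, and in RNA of whole cultures fewer cells in S phase and less RNA per cell cannot be told apart.

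**Figure D3:**
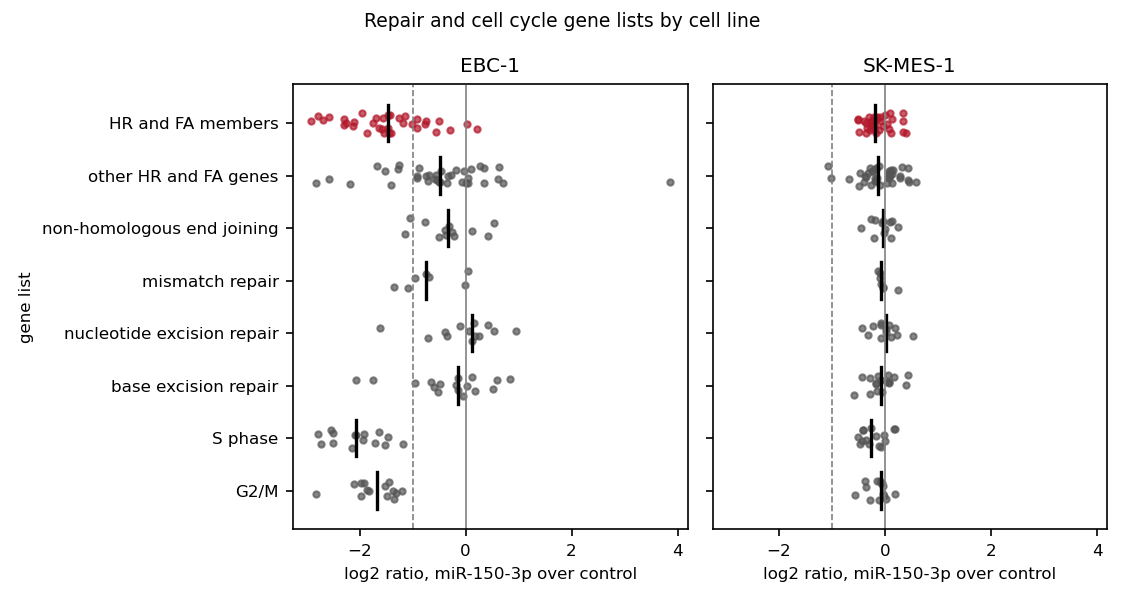
Log2 ratio of miR-150-3p over control RNA (horizontal axis) for the 35 recombination and Fanconi anemia genes and 7 other gene lists (vertical axis) in EBC-1 (left) and SK-MES-1 cells (right). Each point is a gene, black bars are medians, and the dashed line marks -1. In EBC-1 the S phase, G2/M and recombination lists lie lowest, with medians of -2.07, -1.67 and -1.46, and the point far to the right is EME2.

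The EBC-1 sizes were smaller under a different processing of the signals. With normexp correction of the median signals, an offset of 50 and loess in place of the processed signals, all changed at once, 10 of the 35 genes were below -1 and the median was -0.62. MND1 was then at -1.96, XRCC2 at -1.34, POLQ at -1.18, BRCA1 at -1.17, BLM at -0.99, EXO1 at -0.67 and BRCA2 at -0.17. Less the mean of the 6 other arrays, 25 were below -1. The share of all genes below -1 was not counted for either alternative.

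As a mean over both lines, 1 of the 35 genes passed the test and was lower, and 0 were higher, by limma on all 8 arrays with Benjamini-Hochberg adjustment over 14230 genes. Over all genes 2.9% were lower and 2.47% higher. The gene was EME1, with a mean of -1.10 ± 0.24 (mean of 2 arrays, SE from the spread within groups of all 8, adjusted p = 0.043 by limma). With the spread of the 2 miR-150-3p arrays alone its SE was 0.33 (adjusted p = 0.356 by limma), and 0 of all 14230 genes passed. At an unadjusted p under 0.05, 24 of the 35 genes were lower and 0 higher, beside 14.9% and 15.1% of all genes. Without the SK-MES-1 array the EME1 value was -1.69, and without the EBC-1 array it was -0.52. Each is then the value of a lone array, which has no spread of its own, so no test is given. The mean of FANCD2 was -0.85 ± 0.24 (adjusted p = 0.0746 in limma).

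The second comparison asked which genes moved with loss of DONSON in SBC-3 cells. By limma over the 3 siDONSON and 3 LOXL2 arrays, MRE11, RAD54L and FANCD2 were lower and XRCC2 was higher, 3 and 1 of 35 genes. Over all 14454 genes tested, 4.45% were lower and 5.31% higher, so the share of the 35 genes was 8.57% and 2.86%. RAD54L fell by the largest amount, with a mean of -0.56 ± 0.094 (SE, 3 arrays, adjusted p = 0.0246 by limma), or 1.47-fold. MRE11 had a mean of -0.54 ± 0.085 (adjusted p = 0.0219) and FANCD2 of -0.36 ± 0.084 (adjusted p = 0.0482). XRCC2, the one higher gene, had a mean of 0.31 ± 0.068 (adjusted p = 0.044). The fold sizes were small, from 1.24 for XRCC2 to 1.47 for RAD54L. The fit pools the 2 groups, and the siDONSON arrays spread more, with a median SD over all genes of 0.241 beside 0.104 for LOXL2. With the spread of the siDONSON arrays alone, 0 of the 35 genes passed, beside 0.18% of all genes. RAD54L then had an SE of 0.136 (adjusted p = 0.164 by limma).

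The 3 siRNAs differed among themselves over these genes by about as much as over all genes. The median of the 35 genes was -0.19, 0.02 and -0.19 with siDONSON-1, siDONSON-2 and siDONSON-3, and 15 of the 35 had the same sign on all 3 arrays, or 42.9% beside 42.6% of all genes. The SD over the 3 arrays had a median of 0.239, beside 0.241 over all genes. RAD50 was the most spread, with -0.95, 0.20 and 0.37 and an SD of 0.716. Without siDONSON-2, 9 of the 35 genes were lower and 0 higher (EME1, EXO1, FANCA, FANCD2, FANCE, FANCI, MRE11, RAD54L and UBE2T), beside 6.78% and 8.59% of all genes. Without siDONSON-1 there were 3 lower genes, FANCC, MRE11 and RAD54L, beside 2.79% of all genes, and without siDONSON-3 there were 0, beside 0.804% of all genes in either direction. In the fit of all 3 arrays, 8 of the 35 genes were lower and 3 higher at an unadjusted p under 0.05, beside 13% and 17.1% of all genes. Without siDONSON-3, 8 of the 35 genes reached an unadjusted p under 0.05, and the share of all genes was not counted for that fit. XRCC2 did not pass without any one of the 3 arrays, nor after median centring.

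The third comparison asked the same of A549 cells edited at LOXL2. By the same fit, RAD54B, MRE11 and FANCM were lower and XRCC2 was higher, 3 and 1 of 35 genes, or 8.57% and 2.86%, where 8.95% and 9.65% of all 15531 genes were. RAD54B had a mean of -0.78 ± 0.075 (mean of 3 arrays, SE from the spread of all 6, adjusted p = 0.00359 by limma), 1.71-fold lower. MRE11 was at -0.63 ± 0.086 (adjusted p = 0.00773) and XRCC2 at 0.56 ± 0.069 (adjusted p = 0.0057). FANCM was at -0.27 ± 0.072 and was close to the threshold (adjusted p = 0.0497 by limma). FANCF, with a mean of 0.44 ± 0.13, missed it (adjusted p = 0.0579). At an unadjusted p under 0.05, 6 of the 35 genes were lower and 4 higher, beside 16% and 18.9% of all genes.

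The edited arrays were close to each other. The SD of the 35 genes over the 3 arrays had a median of 0.058, beside 0.104 over all genes, from 0.0093 for FANCD2 to 0.21 for FAN1. For FANCD2 this is the SD of a mean of probes of opposite sign. Of the 35 genes, 27 had the same sign on all 3 arrays, or 77.1% beside 70.3% of all genes. Estimated from these 3 arrays alone, the spread let 10 of the 35 genes pass, 6 lower and 4 higher, beside 18.4% and 19.5% of all genes. Without A549-GE2 or without A549-GE3, RAD54B alone passed (1 gene each), beside 3.15% and 4.21% of all genes. Without A549-GE1 there were 3, beside 4.19% of all genes, and FANCM was lost. With all 8 arrays in a single fit, which adds the spread between the LUSQ lines, MRE11 was the only one of the 35 genes to pass with siDONSON and the only one with LOXL2 editing (1 each), beside 7.22% and 14.4% of all genes.

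**Figure D4:**
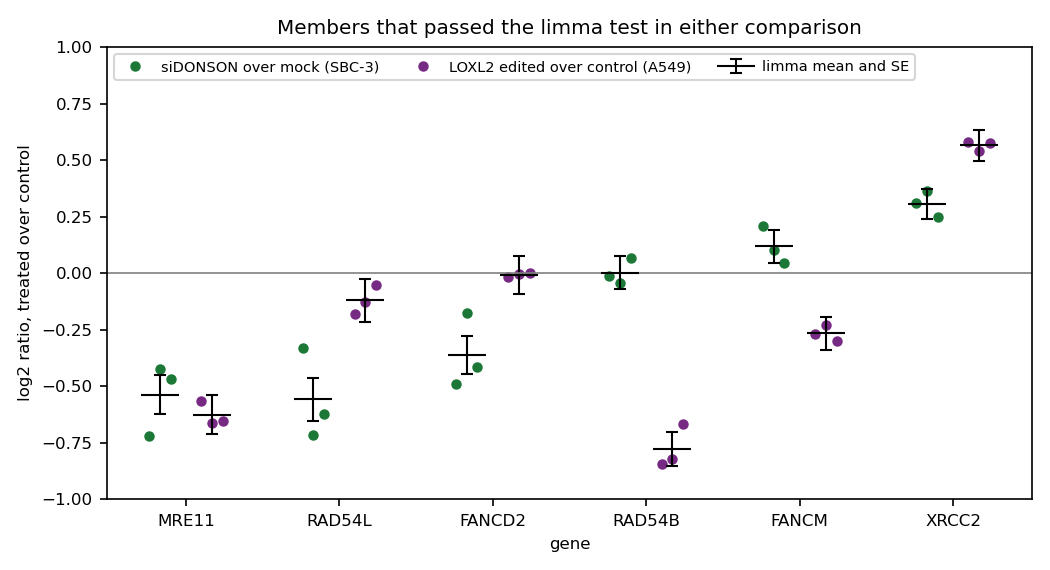
Log2 ratio of treated over control RNA (vertical axis) for the 6 genes that passed the limma test in either comparison (horizontal axis), on the 3 siDONSON arrays (green) and the 3 LOXL2 arrays (purple). Black bars are the limma mean and its SE. MRE11 is below 0 and XRCC2 above 0 on all 6 arrays, while RAD54L and FANCD2 are lower on the siDONSON arrays and RAD54B and FANCM on the LOXL2 arrays.

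MRE11 and XRCC2 passed in both comparisons, in cells of different lines with different controls but with the same dyes on the same RNAs, treated in red and control in green. For these genes the part of the dye was not tested. RAD54B was at 0.0022 ± 0.075 with siDONSON and RAD54L at -0.12 ± 0.095 with LOXL2 editing (adjusted p = 0.988 and 0.412 by limma), and the difference between the 2 treatments was not tested. Of the list of 40 other genes, 0 passed with siDONSON among 36 tested, where 2 were lower and 6 higher at an unadjusted p under 0.05 by limma. With LOXL2 editing GEN1 was lower and MUS81 and SWSAP1 were higher, 3 of 38 tested. GEN1 was at -0.66, -0.78 and -0.72 on the 3 A549 arrays. MUS81, the catalytic partner of EME1, had a mean of 0.43 ± 0.080 (adjusted p = 0.0181 by limma). The 15 S phase genes had medians of -0.10, 0.12 and -0.29 with siDONSON-1, siDONSON-2 and siDONSON-3, and the 14 G2/M genes of -0.072, -0.53 and 0.044. The siDONSON-2 array stood apart, with all 14 G2/M genes below 0 and 4 of the 15 S phase genes below 0, beside 11 and 14 of the S phase genes on the other arrays. The part of these lists in the siDONSON values was not tested. On A549-GE1 to A549-GE3 the medians were -0.10, -0.089 and -0.071 for the S phase and -0.23, -0.13 and -0.15 for the G2/M genes.

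The green channels also gave the levels of the 35 genes in control cells of the 4 lines, as log2 intensity after quantile normalization over the 8 arrays. These levels compare lines for 1 gene and not genes with each other, and with controls that may be a single RNA per line they carry no test. For 20 of the 35 genes the highest and the lowest line differed by more than 1, with a median difference of 1.15. A549 was highest for 17 genes, SBC-3 for 7, EBC-1 for 6 and SK-MES-1 for 5, and the shares over all genes were not counted. The arrays of a line were closer than this, with a median range of 0.089 over the 3 SBC-3 arrays and 0.067 over the 3 A549 arrays, and at most 0.49 for any gene.

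RAD54B was at 6.54 in SK-MES-1, 7.89 in EBC-1, 8.81 in A549 and 9.47 in SBC-3 cells as a mean of its 2 probes, but the dimmer probe was not well above background in SK-MES-1 cells, so the lowest level is not measured. By the brighter probe alone, the processed green intensity was 371 in SK-MES-1 and 773 in EBC-1 cells, 1385 to 1457 in A549 and 1366 to 1534 in SBC-3 cells, where the ranges of the last 2 lines overlap. MRE11 was higher in SBC-3 (10.65) and A549 (10.37) than in EBC-1 (9.03) and SK-MES-1 cells (8.69). BLM was lowest in EBC-1 (9.30) and highest in A549 cells (11.29), and EXO1 and FANCI were lowest in EBC-1 as well. RAD54L and FANCE were lowest in A549 cells, at 10.90 and 10.82, beside 11.91 or more in the other lines. MND1, XRCC2 and FANCA were at nearly the same level in all 4 lines, within 0.52, 0.39 and 0.26. MND1 and XRCC2, among the lowest ratios in EBC-1 cells, thus had control levels in EBC-1 and SK-MES-1 that differed by 0.22 or less.

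**Figure D5:**
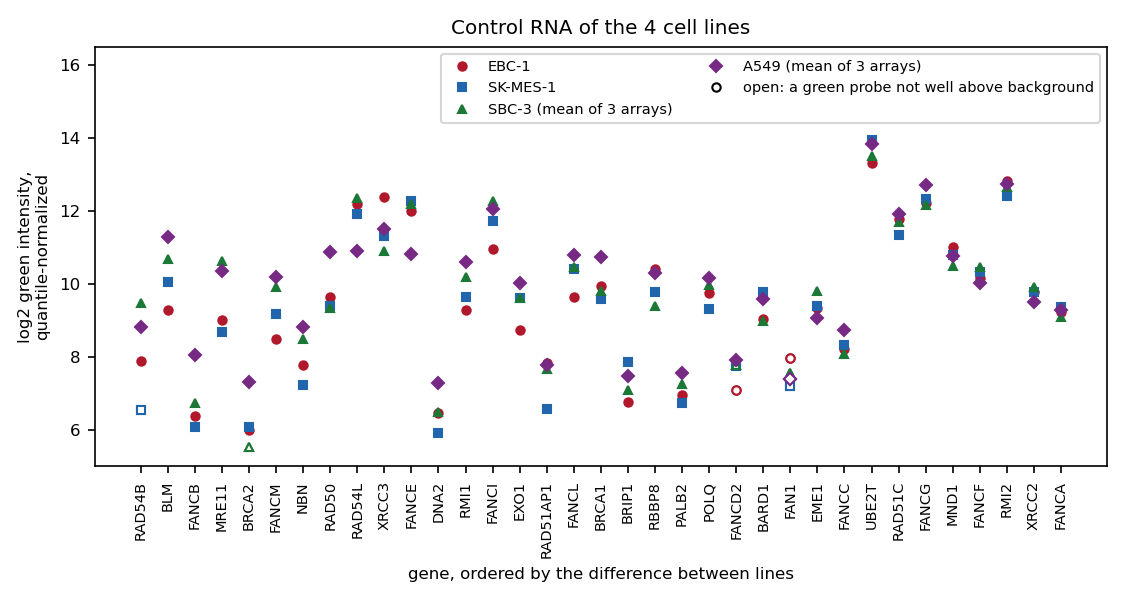
Log2 green intensity of control RNA after quantile normalization (vertical axis) for the 35 genes (horizontal axis, ordered by the difference between the highest and the lowest line) in EBC-1 and SK-MES-1 (1 array each) and SBC-3 and A549 cells (mean of 3 arrays each). Open symbols mark levels that include a green probe not well above background on at least 1 array of the line, as for RAD54B in SK-MES-1 and BRCA2 in SBC-3. The lines spread by 2.00 for BLM, near the left, and by 0.26 for FANCA, at the right, as a mean of probes that disagreed.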

How the data were processed

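RNA of treated (Cy5) and control (Cy3) cells was hybridized to 8 Agilent arrays. The authors deposited the output of Feature Extraction 12.1.1.1, which holds processed intensities, background-subtracted and normalized between the dyes, and their log10 ratio with its error. A deposited series table of log10 ratios held the same values. The software's p-values were left out.

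Red over green was taken as a log2 ratio of processed intensities, leaving out control and outlier spots. Spots were averaged per probe, and probes well above background in at least 1 channel were averaged per gene. Of 50096 accessions, 24782 matched a RefSeq symbol (22439 genes). The number of arrays limits the precision. limma 3.58.1 (R 4.3.3) tested the means of the siDONSON and LOXL2 groups against 0 in a fit of 6 arrays (4 residual degrees of freedom) and the mean of both miR-150-3p arrays in a fit of all 8 (5 residual degrees of freedom), two-sided, with Benjamini-Hochberg adjustment at 0.05 over genes counted on all arrays of the group. The 2 miR-150-3p arrays were kept out of the first fit because the difference between their lines would enter the spread. The fits were also run on simulated data, drawn with 1 spread per gene shared by all groups. Those runs do not cover groups that differ in spread. Single arrays were set against a log2 ratio of 1 without a test. A level not well above background was replaced by the lowest level well above it, or by its own where higher, which gives "at least" folds.

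The 35 genes and all lists were chosen with earlier results of these data known. Values on every array were given for the 10 lowest genes in EBC-1 with both channels well above background, the 5 lowest in SK-MES-1, those above 0 in EBC-1, those that passed a test, FANCD2, and those whose probes differed by over 1, plus EBC-1 values of the lowest and highest 2 of the other recombination genes. Some genes are not reported here. The alternatives were normexp with an offset of 50 and loess (on median signals, as no mean signals were used here), other filters on dim probes, the brightest probe, median centring, the series table, other samples in the fit, subtraction of the other 6 arrays, a 1.5-fold limit, and leaving out each array. Motifs were searched with Python 3.11.15 on both strands.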

Additional observations from a re-analysis of the deposited data

Results flagged for a closer look

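For 8 of the 35 genes the ratio was below 0 in EBC-1 cells and above 0 in SK-MES-1 cells. With 1 array per line this difference was not tested, and the share of all genes with such a split was not counted. The SK-MES-1 value exceeded the EBC-1 value by 2.65 for POLQ, by 2.33 for RAD51AP1, by 1.78 for RAD54B, by 1.71 for RMI2, by 1.37 for RMI1, by 1.15 for RAD51C and by 0.92 for BRIP1, on the log2 scale, and by at least 1.39 for BRCA2. For 0 of the 8 did both lines lie beyond 1.96 software errors of 0, and the SK-MES-1 values ran from 0.0061 for BRIP1 to 0.40 for RAD51C. The BRCA2 signal was not well above background in red in EBC-1 cells, which leaves a bound. The RAD54B probes differed by 1.99 in SK-MES-1 cells, where the dimmer was not well above background in green, and by the brighter probe alone RAD54B was below 0 in both lines, at -2.17 and -0.65.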

How the results depend on the processing

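No paired analysis was possible because each array was compared with its own control channel and no groups were compared with each other. In EBC-1 cells, 22 to 30 genes were past the limit under 7 of the alternatives, and 10 with normexp and loess, where the median was -0.62. The 22 were among 32 genes left with both channels well above background, and the 30 were past the looser limit of 1.5-fold. The share of all genes was not counted under these alternatives. In SK-MES-1 cells the count was 0 under all 8. With siDONSON, 4 genes passed, and 3 to 6 did under 7 of the alternatives. The 6 came with normexp and loess (758 lower and 1321 higher of all 14454 genes) and with the brightest probe (726 and 918 of 14411). The count was 1 with all 8 arrays in a single fit and 0 with the spread of the 3 own arrays alone, beside 7.22% and 0.18% of all genes. Leaving out each array gave 0 to 9, beside 0.804% to 15.4% of all genes. With LOXL2 editing, 4 passed, and 3 to 6 did under 7 of the alternatives. The 6 came with normexp and loess, where 1704 of all 15531 genes were lower and 2244 higher. The count was 1 with all 8 arrays and 10 with the own spread, beside 14.4% and 37.8% of all genes. Leaving out each array gave 1 to 3, beside 3.15% to 4.21% of all genes. In the mean of both miR-150-3p arrays, 1 passed. The count was 6 with normexp and loess, 4 with both channels well above background, 0 without a filter on dim probes, 5 with the brightest probe, 0 with the own spread, 0 less the mean of the 6 other arrays, and 0 to 28 when an array was left out. In the fit where 1 passed, 413 of all 14230 genes were lower and 352 higher, and with normexp and loess 727 and 812. With both channels well above background they were 654 and 443 of 12564, with 32 of the 35 genes tested. The brightest probe gave 520 and 441 of 14139. Without a filter on dim probes they were 134 and 64 of 22439, and less the mean of the 6 other arrays 153 and 71 of 13498. The cause of these changes in the count was not tested. Adjusted p-values in limma ranged over the alternatives from 0.00635 to 0.162 for MRE11, from 0.0122 to 0.21 for RAD54L, from 0.0223 to 0.288 for FANCD2 and from 0.00948 to 0.664 for XRCC2 with siDONSON, and from 0.00109 to 0.067 for MRE11, from 9.41e-04 to 0.0993 for RAD54B, from 0.0154 to 0.414 for FANCM and from 4.24e-04 to 0.376 for XRCC2 with LOXL2 editing. For EME1 in the mean of the LUSQ lines they ranged from 0.0228 to 0.356 with both arrays in the fit. The direction of each of these genes was the same under every alternative run. Signal over background limits BRCA2, FANCB and DNA2, whose red signal in EBC-1 cells was not well above it.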
